A study of Mus musculus with 12 samples.

Results

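The semaphorins, plexins, ephrins, Eph receptors, Slits, Robos, netrins and Unc5 receptors were examined in endothelial cells sorted from the mesentery and the epididymal fat of mice on 2 diets. The genes were taken by symbol, as every listed gene whose name has the form of these 8 families (Sema, Plxn, Efn, Eph, Slit, Robo, Ntn and Unc5, each with its number or letter). This gave 64 of 27825 listed genes: 20 semaphorins, 9 plexins, 8 ephrins, 13 Eph receptors, 3 Slits, 4 Robos, 3 netrins and 4 Unc5 receptors. Of these, 60 had a mean of at least 10 normalized counts over the 12 libraries and entered the tests, among 22238 genes tested. Slit1, Efna3, Plxnb3 and Sema4f lay under that mean and were described by level only.

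These families were first known for steering growing axons, and the vasculature uses the same signals. Secreted class 3 semaphorins act through plexins, most of them with the neuropilins Nrp1 or Nrp2 as co-receptors, while many membrane-bound semaphorins bind plexins directly, and plexin signalling loosens a cell's hold on its surroundings. Ephrins are held on the membrane and bind Eph receptor tyrosine kinases on a neighbouring cell. In vessels, ephrin-B2 is the classical marker of arteries and its receptor EphB4 that of veins. Slits signal through Robo receptors, of which Robo4 is largely restricted to endothelium, and netrins signal through Dcc, neogenin and the Unc5 receptors, of which Unc5b is the endothelial one.

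All 4 groups came from male ROSA26-eYFP+/+ Cdh5-CreERT2+ mice. In this model a tamoxifen-activated Cre recombinase driven by the Cdh5 (VE-cadherin) promoter switches on yellow fluorescent protein in endothelium, blood and lymphatic vessels alike. Every animal, controls included, ate tamoxifen food for 2 weeks starting at 6 weeks of age, and from 8 weeks either normal chow (5.8% fat) or a high fat diet (60% fat) for 12 to 13 weeks. The mesentery, a membrane along which vessels reach the intestine, and the epididymal fat pads were dissociated with actinomycin D present, 6 mice were pooled per sample, and viable fluorescent cells were sorted for bulk RNA-seq. Each group (mesentery on chow, mesentery on high fat, epididymal fat on chow, epididymal fat on high fat) held 3 libraries with the letters A, B and C. The labels speak of 2 independent replicates beside these 3 letters, so the p-values and SDs treat as independent some libraries that may not be.

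Library totals ran from 8348897 to 25397963 reads in listed genes, and 3 reads, taken as the floor of detection, were worth 2.12 to 4.22 normalized counts. Cdh5 itself did not pass the limma test between the tissues (adjusted p 0.982 on chow and 0.958 on high fat, mesenteric group means of 3842 and 2835 normalized counts on chow and high fat, epididymal ones of 3804 and 3120), whereas 6 of 10 pan-endothelial markers were lower in epididymal fat on chow and 7 of 10 on high fat. The summed level of those 10 markers ranged over libraries from 107151 to 165734 in mesentery and from 32966 to 79481 in epididymal fat. Fibroblast markers were higher in epididymal fat (7 of 8 on chow and 8 of 8 on high fat, with summed levels of 18859 to 62836 against 4642 to 10115). Macrophage and leukocyte markers were higher for 3 of 10 on chow and 8 of 10 on high fat. Their sum ran from 6758 to 88901 in epididymal fat on chow and from 143140 to 360026 on high fat, against 1926 to 26680 in mesentery, with Adgre1 at 0 in at least 1 library. Lymphatic markers (Prox1 at 0 in at least 1 library) were higher for 5 of 7 and lower for 1 of 7 on chow. On high fat none passed as higher and 1 of 7 was lower. Their sum on high fat still ran from 11830.5 to 18154 in epididymal fat against 2818 to 4759 in mesentery. Smooth muscle and pericyte markers were higher for 6 of 8 on chow and 3 of 8 on high fat. All 8 adipocyte markers were higher in epididymal fat on chow (summed 63742 to 87016 against 3988 to 6405) and none on high fat. All 6 pancreatic acinar markers were lower on both diets, with sums of 183 to 550 against 22403 to 149609. In bulk samples fewer cells of a type and less RNA per cell cannot be told apart. These marker levels moved with the tissue results below, and their part in those results was not tested. Mesenteric chow replicate C had the smallest library total (8348897 reads) and differed from replicates A and B in several sums. Its pan-endothelial sum was 113671 against 158826 and 165734, and its macrophage and leukocyte sum 10789 against 1926 and 2337. Its lymphatic sum was 13032 against 1332 and 1522, and its venous sum 4771 against 909 and 948. Its acinar sum was 22403 against 149609 and 117869, while its smooth muscle and pericyte sum (1367) lay between theirs (1599 and 1325). The part of these differences in its values below was not tested.

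On a scale per kilobase of exon, which allows levels of different genes to be compared, Efna1 (ephrin-A1, a ligand of EphA2) was the most abundant member in every group. Its level was 5087 and 4486 normalized counts per kilobase in mesentery on chow and high fat, and 4419 and 2674 in epididymal fat. Averaged over all 12 libraries, the next were Robo4 at 572, Efnb1 (ephrin-B1) at 526, Ephb4 at 333 and Efnb2 (ephrin-B2) at 168 normalized counts per kilobase. The most abundant semaphorins were Sema3g (138), Sema3f (134) and Sema6a (119), and the most abundant plexin was Plxnd1 (64.4). In the same unit Ntn4, a basement membrane netrin, stood at 58.8, and Unc5b at 54.6. Sema6d (60.2), Epha4 (58.4), Sema6b (55.6) and Plxna2 (55.5) lay close to these, the remaining members lay lower, and Sema4f was the scarcest. In Sema4f the 3 mesenteric chow libraries were listed at 0, 0 and 0, and its highest library reached 14.8 normalized counts.

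**Figure D1:**
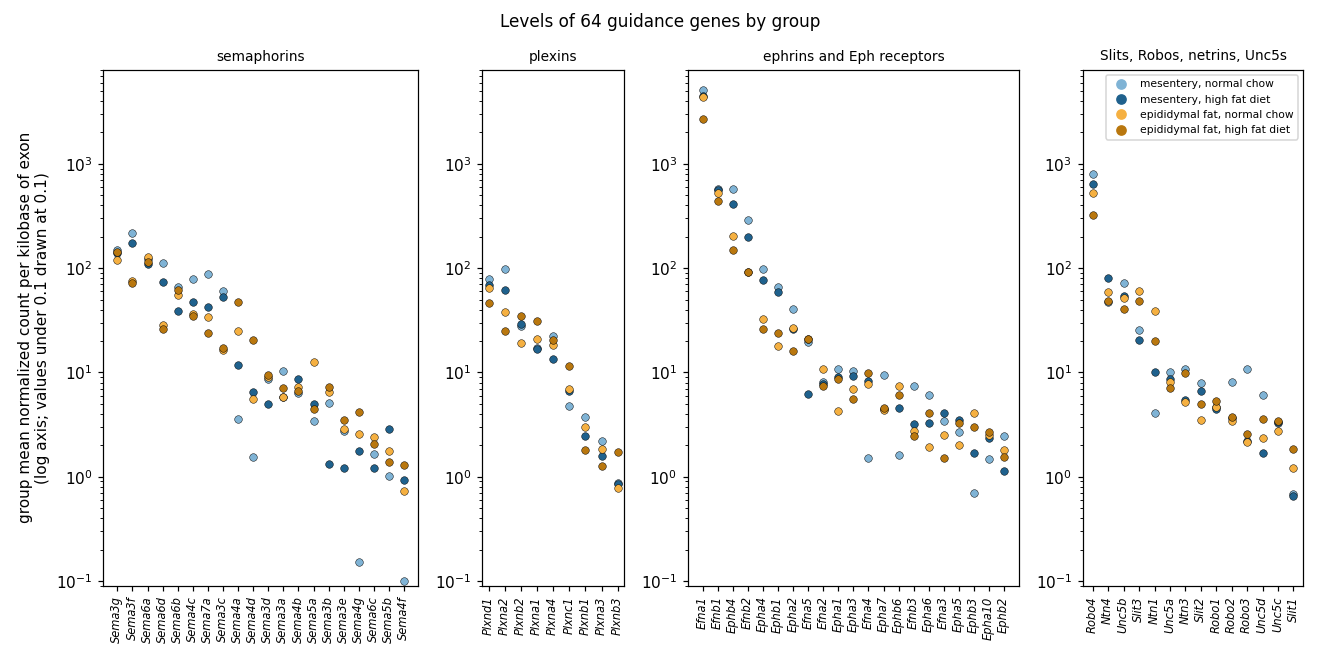
Each column is 1 of the 64 guidance genes, ordered within its families by mean level, and each point is the mean of 3 libraries of a group in normalized counts per kilobase of exon, on a log axis. Efna1 stands above all other members in each group, and Ephb4, Efnb2, Sema3f and Sema6d show the mesenteric points above the epididymal ones.

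Most guidance genes that differed between the tissues were higher in mesentery. On normal chow 12 of the 60 tested members passed the test (limma on log2(normalized count + 1), adjusted p under 0.05): 10 were lower in epididymal fat and 2 were higher. Of all genes tested in that comparison 12.8% passed, 5.47% lower and 7.32% higher. On the high fat diet 8 members passed, 7 lower and 1 higher, against 8.34% of all genes tested, 3.43% lower and 4.91% higher. The same 7 members passed on both diets (Sema3c, Sema3f, Sema6d, Plxna2, Epha4, Ephb4 and Slit3), Sema4c, Sema7a, Efnb2, Ephb1 and Ntn1 passed on chow alone, and Robo4 passed on high fat alone. Passing on 1 diet alone is not a difference between the diets: no member passed the test of that difference itself. Without mesenteric chow replicate A 6 members passed on chow, and without mesenteric replicate B or epididymal replicate C 4 passed on high fat. Calls over all genes tested fell too. They were 1659 without that chow library, beside 2843 with every library. On high fat they were 815 and 728 without mesenteric replicate B and epididymal replicate C, beside 1854. The median log2 change of the tested members was -0.31 on chow and 0.00 on high fat, beside -0.08 and 0.06 over all genes tested.

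The 2 tissue comparisons share no library, and their log2 changes had the same sign for 45 of the 60 members (75%), beside 72.8% of all genes tested. Across the 60 members the changes correlated with Pearson's r of 0.583 and a Spearman rank correlation of 0.631, and across all genes tested with r of 0.659 and a rank correlation of 0.576. These are descriptions across genes measured in the same libraries, and genes are not independent replicates.

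**Figure D2:**
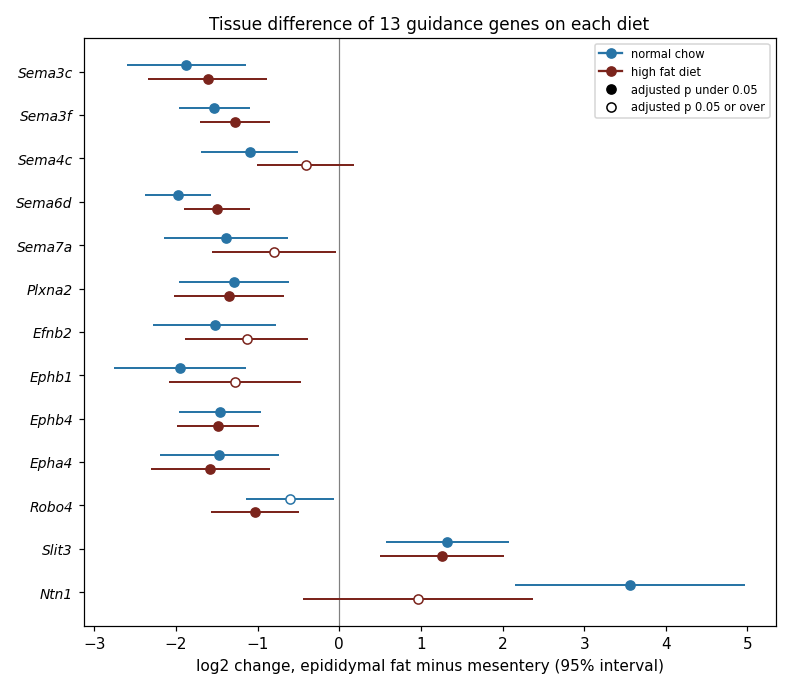
Points are the log2 change between epididymal fat and mesentery on each diet for the 13 guidance genes that passed in either comparison, lines are 95% intervals of the fit, and filled points passed at an adjusted p under 0.05. Of the 13 genes, 11 lie left of 0 on both diets, while Slit3 and Ntn1 lie right of it.

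The promoters of 4 members that passed are printed as examples of genes lower in epididymal fat: Sema6d, Epha4 and Ephb4 on both diets and Robo4 on high fat. Other members that passed in that direction are not printed, and these 4 do not represent them. Each sequence is the 250 bases before a start site in RefSeq (build GRCm38.p6, which is not the build of the counts), read in the direction of the gene, in lower case with motif matches in capitals. They are Sema6d at chr2:124089719-124089968 (plus strand, 1 of its 2 listed starts), Epha4 at chr1:77515089-77515338 (minus strand), Robo4 at chr9:37401722-37401971 (plus strand) and Ephb4 at chr5:137349859-137350108 (plus strand).
Sema6d: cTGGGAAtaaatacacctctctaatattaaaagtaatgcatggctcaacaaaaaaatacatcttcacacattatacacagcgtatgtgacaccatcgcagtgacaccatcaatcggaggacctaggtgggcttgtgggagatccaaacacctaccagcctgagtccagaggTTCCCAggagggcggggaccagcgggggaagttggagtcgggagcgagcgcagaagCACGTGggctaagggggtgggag
Epha4: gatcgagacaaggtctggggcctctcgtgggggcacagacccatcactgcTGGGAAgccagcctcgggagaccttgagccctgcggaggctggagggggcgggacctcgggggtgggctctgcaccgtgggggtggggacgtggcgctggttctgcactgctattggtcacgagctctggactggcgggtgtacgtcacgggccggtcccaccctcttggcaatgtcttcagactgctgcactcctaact
Robo4: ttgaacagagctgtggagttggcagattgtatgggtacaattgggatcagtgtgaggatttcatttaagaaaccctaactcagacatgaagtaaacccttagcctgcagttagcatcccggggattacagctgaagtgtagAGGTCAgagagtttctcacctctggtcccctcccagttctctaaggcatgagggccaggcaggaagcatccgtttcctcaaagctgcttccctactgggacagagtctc
Ephb4: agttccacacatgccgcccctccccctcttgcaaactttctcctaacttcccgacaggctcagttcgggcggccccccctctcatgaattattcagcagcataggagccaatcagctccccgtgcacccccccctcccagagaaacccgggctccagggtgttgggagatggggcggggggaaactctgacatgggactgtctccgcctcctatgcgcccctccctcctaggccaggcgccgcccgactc

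The strings CGGAAG (ETS-type), TGGGAA (RBPJ-type), AGGTCA (nuclear receptor half-site) and CACGTG (E-box), which do not overlap one another in the printed windows, were searched on both strands. The Sema6d window held the RBPJ-type string 2 times and the E-box 1 time, that of Epha4 the RBPJ-type string 1 time, that of Robo4 the half-site 1 time, and that of Ephb4 none of the 4. Of 32851 promoter windows of the same length, 13.6% held the ETS-type string, 21.6% the RBPJ-type, 14% the half-site and 6.02% the E-box. Of the 55 members with a promoter in the table, 6, 11, 9 and 3 held them in that order. Of the 9 members lower on chow with a promoter, 2 held the RBPJ-type string, 1 the E-box and none either of the other strings. Those matches are in the printed Sema6d and Epha4, so the printed windows are richer in matches than those left out. The unprinted windows of Efnb2 and Ephb1 held none of the 4 strings. The median GC content was 64.4% in the members' windows and 52.4% in all windows. A match is a description of letters, not of a bound site.

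Among the semaphorins, 5 of 19 tested were lower in epididymal fat on chow and 3 of 19 on high fat, with none higher. Sema6d, a membrane semaphorin that binds plexin-A1, had the smallest adjusted p of any member. Its mesenteric chow libraries A, B and C had 1193, 1130 and 1228 normalized counts and the epididymal ones 260.0, 296 and 348. On the high fat diet the corresponding libraries had 718, 839.9 and 781 in mesentery against 305, 301 and 226 in epididymal fat. The groups were far apart on both diets, and the epididymal level was 0.254 times the mesenteric level on chow (log2 change -1.98, SE 0.18, adjusted p 1.94e-05) and 0.354 times on high fat (log2 change -1.50, SE 0.18, adjusted p 0.000244).

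The secreted semaphorins Sema3c and Sema3f, ligands of neuropilin and plexin-A or plexin-D receptor complexes, had the same pattern. Sema3f stood at 1142, 1107 and 1111 normalized counts in mesentery on chow and at 501, 357 and 325 in epididymal fat (log2 change -1.53, SE 0.19, adjusted p 0.00023). The high fat libraries stood at 907, 769 and 1031 against 337, 413 and 362 (log2 change -1.28, SE 0.19, adjusted p 0.00131). The lowest mesenteric library of Sema3f lay well above the highest epididymal one on either diet. Sema3c had 588, 436 and 283 against 157, 118 and 77.6 normalized counts on chow (log2 change -1.88, SE 0.33, adjusted p 0.00248), and 302, 331 and 504 against 114, 107 and 144 on high fat (log2 change -1.61, SE 0.33, adjusted p 0.00976). Its mesenteric libraries spread more widely than those of Sema3f, and none overlapped an epididymal library of the same diet. The calls of Sema6d, Sema3f and Sema3c on both diets held in each of the 18 alternatives run for them.

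Sema4c, a membrane ligand of plexin-B2, and Sema7a, a lipid-anchored semaphorin that also binds integrins, passed on chow only. Sema4c had 425, 277 and 387 normalized counts in mesentery against 185, 164 and 152 in epididymal fat on chow (log2 change -1.10, SE 0.27, adjusted p 0.0171), and 216 ± 58.5 against 161 ± 31.6 on high fat (mean ± SD, n = 3; log2 change -0.41, adjusted p 0.457). Without mesenteric chow replicate A or epididymal chow replicate B its adjusted p on chow was 0.0847 and 0.0647. Sema7a had 296, 206 and 367 against 101, 79.1 and 154 normalized counts on chow (log2 change -1.39, SE 0.35, adjusted p 0.0182), and 139 ± 32.5 against 78.9 ± 18.9 on high fat (mean ± SD, n = 3; log2 change -0.81, adjusted p 0.195). Its call on chow was lost without mesenteric chow replicate A (adjusted p 0.0697), without epididymal chow replicate A (0.0708) or B (0.0947), and when the columns were rescaled to the same total (0.0567). Over the alternatives its adjusted p ran from 0.0024 to 0.0947, and that of Sema4c from 0.0014 to 0.0847. In both genes the chow groups did not overlap.

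Other semaphorins known from vessels gave no call between the tissues. Sema3g, an arterial endothelial semaphorin, had a log2 change of -0.22 on chow (SE 0.30, adjusted p 0.708), and Sema6a one of 0.11 (SE 0.27, adjusted p 0.852). For Sema6a the group means lay between 965 and 1129 normalized counts. Sema4a ran from 0.896 to 46.5 normalized counts in mesentery on chow and from 47.0 to 262 in epididymal fat (log2 change 3.42, SE 1.24, adjusted p 0.0934). It passed without mesenteric chow replicate C (log2 change 4.54, adjusted p 0.0253), and its adjusted p over the alternatives ran from 0.00792 to 0.315. Sema4d, a ligand of plexin-B1 that leukocytes also make, had a log2 change of 1.63 on chow (SE 0.86, adjusted p 0.261) and of 2.00 on high fat (adjusted p 0.192). By group mean Sema4a and Sema4d stood highest in epididymal fat on high fat, at 259 and 156 normalized counts. The Sema4a libraries A, B and C there had 103, 133 and 540. Replicates A and B lay under the 262 of epididymal chow replicate B. That group also had the highest macrophage and leukocyte markers, whose part was not tested. Sema4g, with 1.14, 0 and 2.82 normalized counts in mesentery on chow against 19.6, 14.8 and 32.7 in epididymal fat, just missed the threshold (log2 change 3.46, SE 1.08, adjusted p 0.0515). Sema5a did so too, with 76.3, 54.7 and 61.9 against 383, 216 and 111 (log2 change 1.70, SE 0.55, adjusted p 0.0606). The adjusted p of Sema4g ran from 0.0125 to 0.138 over the alternatives and that of Sema5a from 0.00522 to 0.268, passing without mesenteric chow replicate C for Sema4g (0.035) and without epididymal chow replicate C for Sema5a (0.025).

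Plexins are the receptors of these ligands, and 1 of 8 tested differed between the tissues. Plxna2, a receptor for class 3 and class 6 semaphorins, had 2141, 1987 and 914 normalized counts in mesentery on chow against 684, 699 and 562 in epididymal fat (log2 change -1.28, SE 0.31, adjusted p 0.0146). The high fat libraries had 967, 1091 and 1109 against 333, 612 and 344 (log2 change -1.35, SE 0.31, adjusted p 0.0163). On chow mesenteric replicate C lay far under replicates A and B and still above every epididymal library. The chow call was lost without mesenteric replicate A or B (adjusted p 0.0761 and 0.0621; range over the alternatives 0.000428 to 0.0761). On high fat it was lost with edgeR (0.0692) and without mesenteric replicate B (0.069) or epididymal replicate A (0.0525) or C (0.0864), with a range of 0.00104 to 0.0864. Plxnd1, the endothelial plexin that binds Sema3e, had 573 ± 213 normalized counts in mesentery against 469 ± 116 in epididymal fat on chow (mean ± SD, n = 3; log2 change -0.23, SE 0.28, adjusted p 0.669). Plxna1 had 155 ± 87.9 against 189.9 ± 35.5 in the same order (log2 change 0.51, SE 0.59, adjusted p 0.654), and Plxnb1 36.2 ± 9.08 against 28.8 ± 6.48 (log2 change -0.31, SE 0.76, adjusted p 0.849). In these 2 families 5 ligands and 1 receptor passed on chow, and 3 ligands and that receptor on high fat.

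Ephrin-B2 and 3 Eph receptors were lower in epididymal fat on chow, that is 1 of 7 ephrins and 3 of 13 Eph receptors tested, and 2 Eph receptors were lower on high fat. Ephb4, the venous Eph receptor, had 2793, 3158 and 1963 normalized counts in mesentery on chow against 1053, 1016 and 775 in epididymal fat (log2 change -1.46, SE 0.23, adjusted p 0.00103). On high fat the values were 1926, 2079 and 1702 against 519, 867 and 692 (log2 change -1.48, SE 0.23, adjusted p 0.00142). Every mesenteric library exceeded every epididymal one, the level in epididymal fat was 0.363 and 0.358 times that in mesentery on chow and high fat, and both calls held in all 18 alternatives. Efnb2, its ligand and the arterial marker, had 2269, 2770 and 902 normalized counts in mesentery on chow against 569, 804 and 519 in epididymal fat (log2 change -1.53, SE 0.34, adjusted p 0.0106). With the high fat diet it had 1387, 1419 and 1258 against 521, 813 and 551 (log2 change -1.13, SE 0.34, adjusted p 0.0602). Again no library overlapped, although mesenteric chow replicate C was close to the highest epididymal library. Without mesenteric chow replicate A the adjusted p of Efnb2 on chow was 0.0551, and over the alternatives it ran from 7.99e-05 to 0.0551. On high fat it ran from 0.00591 to 0.207, passing in 8 of 18 alternatives, among them the fit with a replicate block (0.0183).

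The arterial ligand and its venous receptor both stood lower in epididymal fat on chow. Within a library the log2 ratio of Efnb2 to Ephb4 averaged -0.54 ± 0.51 in mesentery on chow and -0.60 ± 0.28 in epididymal fat on chow (SD, n = 3). It averaged -0.49 ± 0.06 in mesentery on high fat and -0.14 ± 0.17 in epididymal fat on high fat. Beside these values, 3 of 8 arterial markers were higher and 1 lower in epididymal fat on chow, and 4 of 6 venous markers were higher. On high fat 3 of 8 arterial markers were higher and none lower, and none of the 6 venous markers passed in either direction. The summed venous level on high fat still ran from 5161 to 6189 in epididymal fat against 1976 to 3241 in mesentery.

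Epha4, a receptor that binds ephrins of both classes, had 1070, 916 and 383 normalized counts in mesentery on chow against 244, 277 and 260.4 in epididymal fat (log2 change -1.47, SE 0.33, adjusted p 0.0107). Its high fat values were 644, 730.4 and 492 against 200.1, 262 and 164 (log2 change -1.58, SE 0.33, adjusted p 0.0106). The epididymal libraries lay close together on both diets while mesenteric chow replicate C was lower than the other mesenteric libraries. Its chow call was lost without mesenteric replicate A (adjusted p 0.0593; range 0.000123 to 0.0593), and its high fat call without mesenteric replicate B (0.0597) or epididymal replicate C (0.0635; range 0.000218 to 0.0635). Ephb1, a receptor of the B-type ephrins, had 379, 452 and 543 against 109, 76.5 and 189 on chow (log2 change -1.95, SE 0.37, adjusted p 0.00365), and 572, 409 and 264 against 235, 145 and 127 on high fat (log2 change -1.27, SE 0.37, adjusted p 0.0503). Its chow call held in all 18 alternatives. On high fat it lay at the threshold and passed in 10 of 18, with adjusted p from 0.00227 to 0.209; these included edgeR (0.0491), the replicate block (0.0161), and the fits without mesenteric replicate C (0.0283) or epididymal replicate A (0.0344).

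The most abundant ephrin, Efna1, did not pass on chow (log2 change -0.21, SE 0.30, adjusted p 0.737) or high fat (log2 change -0.83, SE 0.30, adjusted p 0.123). Its libraries had 10260, 10124 and 7542 normalized counts in mesentery against 9741, 7968 and 6553 in epididymal fat on chow, which overlap. On high fat it passed without epididymal replicate B (adjusted p 0.0304), with rescaled columns (0.0233) and with the number range of the libraries as a term (0.0447); the range over the alternatives was 0.0233 to 0.381. Epha2, its main receptor, had 189 ± 43.2 against 124 ± 4.96 on chow (mean ± SD, n = 3; log2 change -0.58, SE 0.32, adjusted p 0.29). Efnb1 averaged 1962 and 1826 (log2 change -0.10, adjusted p 0.851).

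**Figure D3:**
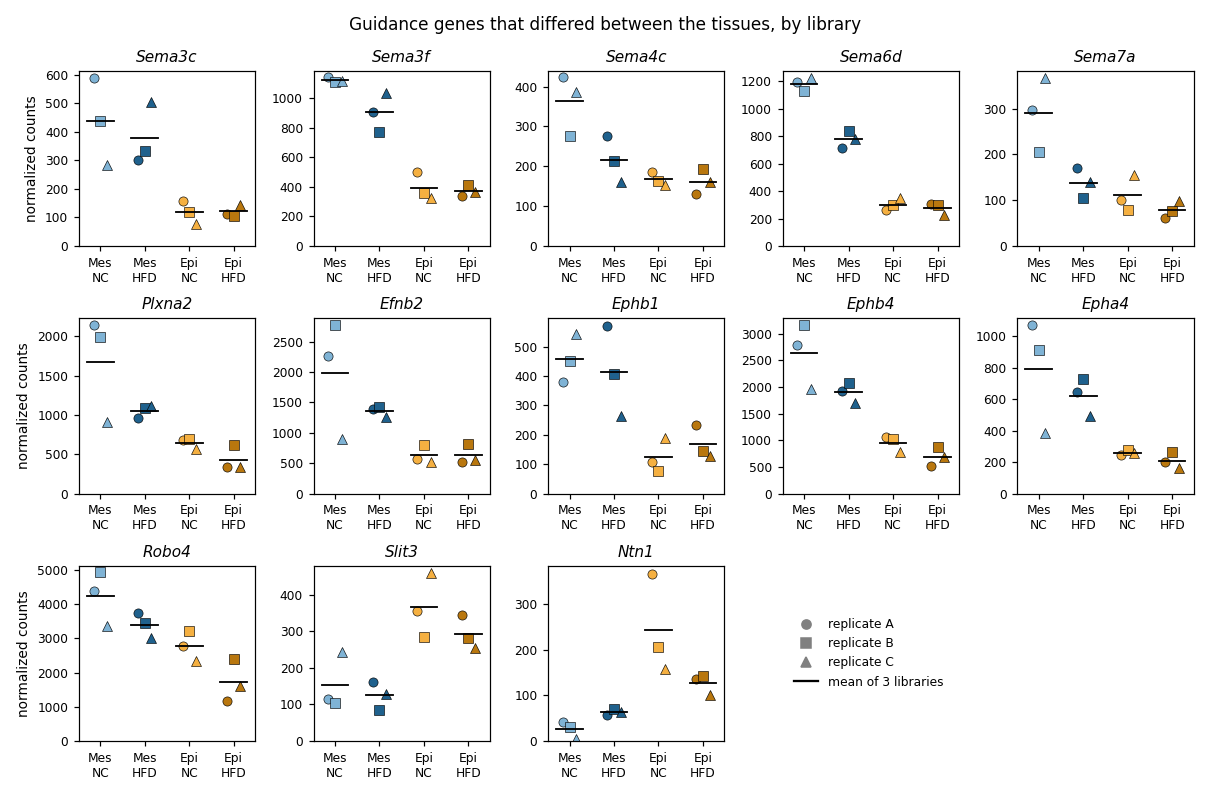
Normalized counts of the 13 guidance genes that passed between the tissues on either diet, 1 symbol per library (shape gives the replicate letter) and a bar at the mean of 3 libraries, with axes from 0. In 11 panels the mesenteric groups stand higher, in Slit3 and Ntn1 the epididymal groups do, and mesenteric chow replicate C lies apart from replicates A and B in Efnb2, Plxna2 and Epha4. That library also had the smallest total and the lowest pan-endothelial sum of its group (113671 against 158826 and 165734). It differed from A and B in lymphatic, venous, acinar, and macrophage and leukocyte marker sums too. The part of these differences was not tested.

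Slit3 and Robo4 differed in opposite directions. Robo4, the endothelial Robo, had 4392, 4930 and 3371 normalized counts in mesentery on chow against 2766, 3221 and 2344 in epididymal fat (log2 change -0.60, SE 0.24, adjusted p 0.137). On the high fat diet it reached 3736, 3440 and 3009 against 1178, 2386 and 1619 (log2 change -1.03, SE 0.24, adjusted p 0.021). The libraries did not overlap on either diet, and the call on high fat was lost with edgeR (adjusted p 0.122) and without mesenteric replicate A (0.0785) or B (0.0794) or epididymal replicate A (0.0601) or C (0.0849), and with only the libraries numbered 50 to 53 in the labels, 2 per group (0.0613). Over the alternatives the adjusted p on high fat ran from 0.00178 to 0.122, and on chow from 0.0502 to 0.336. Pecam1, 1 of the 10 pan-endothelial markers, was also lower in epididymal fat, with log2 changes of -0.90 on chow (adjusted p 0.0133) and -1.02 on high fat (adjusted p 0.0102). Of those 10 markers 6 were lower on chow and 7 on high fat, and none passed as higher. Not all lay lower on chow: the mesenteric and epididymal means were 17463 and 19096 normalized counts for Esam, and 436 and 480 for Erg.

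Slit3, a secreted Robo ligand that mural and stromal cells make as well as endothelium, was higher in epididymal fat. It had 116, 104 and 242 normalized counts in mesentery on chow against 356, 283 and 461 in epididymal fat (log2 change 1.32, SE 0.34, adjusted p 0.0231). Under high fat feeding it had 161, 85.9 and 128 against 344, 281 and 256 (log2 change 1.26, SE 0.34, adjusted p 0.0397). The groups did not overlap, and the calls held in 12 of 18 alternatives on chow and 11 of 18 on high fat. On chow the call was lost with rescaled columns (adjusted p 0.0616), in a fit of the compared groups only (0.0589), and without mesenteric replicate A (0.096) or B (0.0904) or epididymal replicate A (0.0755) or C (0.07), with a range of 0.00249 to 0.096. On high fat it was lost with rescaled columns (0.189), with edgeR (0.0551), and without mesenteric replicate B (0.169) or C (0.0675) or epididymal replicate A (0.108), B (0.0942) or C (0.1), with a range of 0.0061 to 0.189. Fibroblast and mural markers were higher in the same groups as Slit3, and their part was not tested. Slit2 had 264, 59.1 and 283 in mesentery against 27.4, 28.7 and 213 in epididymal fat on chow (log2 change -1.55, SE 0.99, adjusted p 0.375), and Robo1 55.8, 0 and 175 against 38.4, 19.1 and 174 (log2 change 1.26, SE 1.53, adjusted p 0.674). Robo3 was near the threshold on chow, with 64.9, 64.5 and 94.3 against 15.7, 12.2 and 16.3 (log2 change -2.25, SE 0.73, adjusted p 0.0598). It passed in 3 of 17 alternatives: with DESeq2 (adjusted p 0.00556), with the number range as a term (0.0338) and with a pseudocount of 5 (0.0379). The range over the alternatives was 0.00556 to 0.185.

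The largest tissue difference of any member that passed was that of Ntn1 (netrin-1), a secreted ligand of Unc5b and Dcc. It had 42.1, 31.4 and 4.22 normalized counts in mesentery on chow against 366, 206 and 157 in epididymal fat, so that the epididymal level was 11.8 times the mesenteric one (log2 change 3.56, SE 0.65, adjusted p 0.00287). On high fat the values were 58, 69.3 and 63.2 against 135, 143 and 101 (log2 change 0.97, SE 0.65, adjusted p 0.47). Mesenteric chow replicate C was at 3 reads, the floor. The chow call held in all 18 alternatives, and without that library the log2 change was 2.62 (adjusted p 0.000675; range over the alternatives 1.3e-06 to 0.0288). The tissue gap was 1.95 times on high fat and the difference of the gaps did not pass (log2 change -2.60, SE 0.92, adjusted p 0.839). Ntn4 had 133, 228 and 168 against 215, 228 and 219.6 normalized counts on chow (log2 change 0.36, SE 0.27, adjusted p 0.463), and 302 ± 88.7 against 182 ± 8.95 on high fat (mean ± SD, n = 3; log2 change -0.68, adjusted p 0.154). Unc5b, the endothelial receptor, had 508, 661 and 170.4 against 369, 339 and 273 on chow (log2 change -0.25, SE 0.44, adjusted p 0.784). None of the 4 Unc5 receptors passed in either tissue comparison.

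Diet gave no call in these families. In mesentery 0 of 60 members passed, beside 0.0135% of all genes tested, and in epididymal fat 0 of 60, beside 0.549%. At an unadjusted p under 0.05, limma gave 9 members in mesentery, 4 higher and 5 lower on high fat, where 6.15% of all genes lay under that p (3.51% higher, 2.64% lower). It gave 6 in epididymal fat, 2 higher and 4 lower, where 6.94% did (3.84% higher, 3.09% lower). With edgeR and with DESeq2 on the recovered reads no member passed in either tissue. The median log2 change of the tested members was -0.24 in mesentery and -0.07 in epididymal fat, beside 0.00 and 0.10 over all genes tested. The diet changes in the 2 tissues, which share no library, had the same sign for 40 of 60 members (66.7%), beside 53.3% of all genes tested, and their Pearson's r was 0.0927 across the members and 0.186 across all genes.

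In mesentery the smallest p belonged to Sema6d, whose libraries had 1193, 1130 and 1228 normalized counts on chow and 718, 839.9 and 781 on high fat. These did not overlap, and the log2 change was -0.60 (SE 0.18, p 0.00558 in limma, adjusted p 0.572). Sema7a (296, 206 and 367 on chow, 170.2, 105 and 140.3 on high fat; log2 change -1.05, adjusted p 0.639), Sema4c (log2 change -0.76, adjusted p 0.67) and Sema6b (log2 change -0.75, adjusted p 0.676) also lay lower in all 3 high fat libraries without passing. So did Robo3, with 64.9, 64.5 and 94.3 against 14, 12.5 and 18.8 (log2 change -2.23, adjusted p 0.633). In the other direction Ntn1 had 42.1, 31.4 and 4.22 against 58, 69.3 and 63.2 normalized counts (log2 change 1.73, adjusted p 0.699), and Ntn4 133, 228 and 168 against 379.7, 205 and 320.1 (log2 change 0.76, adjusted p 0.67). Efna4 (log2 change 2.38, adjusted p 0.757) and Sema4g (log2 change 2.71, adjusted p 0.718) were at or near the floor in mesentery on chow. In all, 6 members lay lower and 4 higher on high fat in mesentery with no overlap of libraries, where 5.14% and 4.47% of all genes did. Adjusted p for the diet change of Sema6d in mesentery ran from 0.0548 with DESeq2 to 1 over 18 alternatives.

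In epididymal fat the smallest p belonged to Robo4. It had 2766, 3221 and 2344 normalized counts on chow and 1178, 2386 and 1619 on high fat, and the log2 change was -0.73 (95% interval -1.26 to -0.20, adjusted p 0.329). Efna1 had 9741, 7968 and 6553 against 2824, 7231 and 4627 (log2 change -0.81, adjusted p 0.464), and its receptor Epha2 119.8, 129 and 123 against 58.5, 59.5 and 105 (log2 change -0.78, adjusted p 0.551). Replicate A on high fat was the lowest library of Robo4, Efna1 and Epha2, and it also had the lowest pan-endothelial sum of all 12 libraries, 32966. Without it the log2 change of Robo4 was -0.49 (adjusted p 0.895), in a range of 0.0793 to 0.943 over the alternatives. Sema5a had 383, 216 and 111 against 148, 61.9 and 41.1 (log2 change -1.52, adjusted p 0.413). Plxnb2 and Sema4d lay higher on high fat at that p, Plxnb2 with 144, 212 and 86.8 against 257, 202 and 343 (log2 change 0.91, adjusted p 0.488) and Sema4d with 15.7, 80.8 and 30.6 against 190.0, 67.7 and 211 (log2 change 2.00, adjusted p 0.612). Both are genes that leukocytes express too, the summed leukocyte markers rank the epididymal high fat libraries highest, and their part was not tested.

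**Figure D4:**
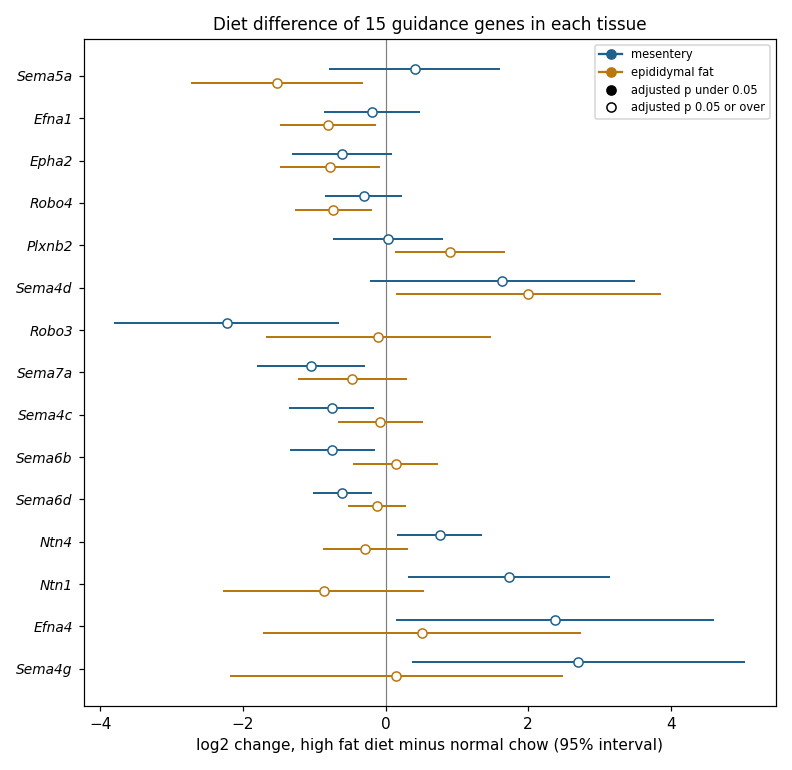
Points are log2 changes between the high fat diet and chow in mesentery and in epididymal fat for the 15 guidance genes at an unadjusted p under 0.05 in either tissue, with 95% intervals of the fit. No point is filled, since no adjusted p lay under 0.05, and the intervals of the low-count genes Sema4g, Efna4, Sema4d and Robo3 are the widest.

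The difference between the diet effects of the tissues was tested as an interaction, and 0 of 60 members passed, beside 0.0045% of all genes. At an unadjusted p under 0.05 in limma there were 4 members, where 4.71% of all genes were: Ntn1 (log2 difference -2.60, adjusted p 0.839), Sema5a (-1.93, 0.959), Ntn4 (-1.04, 0.878) and Sema6b (0.89, 0.9996). Neither edgeR nor DESeq2 passed any member. For Ntn1 the mesenteric libraries were higher on high fat and the epididymal ones lower, with no overlap in either tissue.

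Of 58 co-receptors, adaptors and effectors of these pathways, 55 were listed and 51 tested. On chow 8 were lower in epididymal fat and 1 was higher, and on high fat 5 were lower and none higher. This was 17.6% and 9.8% of the partners tested, beside 12.8% and 8.34% of all genes tested. Of the 8 lower on chow the most negative change was that of Kdr (VEGFR2, which forms complexes with neuropilin). Kdr is also 1 of the 10 pan-endothelial markers, so it counts in both lists. It had 24555, 25939 and 11608 normalized counts in mesentery on chow against 5655, 7837 and 6794 in epididymal fat (log2 change -1.54, SE 0.36, adjusted p 0.0124). The co-receptor Nrp1 had 16973, 16367 and 12087 against 7471, 7598 and 6306 (log2 change -1.08, SE 0.26, adjusted p 0.0156), and both also passed on high fat (log2 change -1.81, adjusted p 0.00706 for Kdr and log2 change -1.14, adjusted p 0.0169 for Nrp1). Nrp2, the co-receptor preferred by Sema3f, averaged 1135 and 1274 and did not pass (log2 change 0.15, SE 0.18, adjusted p 0.686). Arhgef12, which acts downstream of plexin-B receptors (log2 change -1.13, adjusted p 0.0151), and Nck1, an adaptor of Eph and Robo signalling (log2 change -0.65, adjusted p 0.0341), were lower on both diets. Srgap2, which acts downstream of Slit and Robo (log2 change -1.15, adjusted p 0.0031), Fes (log2 change -1.11, adjusted p 0.00816), Micall1 (log2 change -0.92, adjusted p 0.0436) and Dock1 (log2 change -0.88, adjusted p 0.0163) were lower on chow. Arhgef15, an exchange factor downstream of EphA4 (log2 change -1.24, adjusted p 0.017), was lower on high fat. Dpysl3, of the family that carries semaphorin signals to the cytoskeleton, was the 1 higher partner on chow (log2 change 1.29, adjusted p 0.016). The netrin receptors Neo1 and Dcc did not pass (log2 change -0.60, adjusted p 0.483 for Neo1 and log2 change -0.70, adjusted p 0.796 for Dcc). None of the 51 passed between the diets in either tissue.

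A group of mostly low members was highest in the same library of each group. In each group 1 library had the highest share of reads on olfactory and vomeronasal receptor genes, best known from sensory neurons of the nose: replicate C in mesentery on both diets, replicate C in epididymal fat on chow and replicate A in epididymal fat on high fat, with 1918 to 3065 CPM (reads scaled by the library total) against 99.7 to 945 in the others. In 13 of the 60 tested members (21.7%), and in 13.7% of all genes tested, that same library was the highest of its group in all 4 groups. These were Sema3a, Sema3d, Sema3e, Plxnc1, Efna5, Epha3, Epha7, Slit2, Robo1, Robo2, Robo3, Unc5c and Unc5d. Their median ratio of the 4 libraries to the other 8 was 4.49 (1.65 to 8.57), and none of the 13 passed in any comparison. Choosing genes by this pattern fixes a ratio above 1 in advance. It also favours wide spread within groups, which makes a call less likely. Robo2 shows it plainly: 62.6, 8.06 and 344 in mesentery on chow, 41.2, 27.7 and 119 on high fat, 29, 9.56 and 135 in epididymal fat on chow and 171, 1.65 and 16.3 on high fat. Sema3e, the ligand of Plxnd1, had 3.92, 3.48 and 72.5 in epididymal fat on chow and 78.7, 1.65 and 16.3 on high fat. In the labels, the chow libraries of highest olfactory receptor share are both numbered 87. The high fat ones are numbered 53 in mesentery and 88 in epididymal fat. Mesenteric high fat replicate A, also numbered 88, had 592 CPM. The highest share of any library, 3065 CPM, was that of mesenteric chow replicate C.

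The vessel-related ligands in this group had wide errors. The tissue change on chow was -0.43 for Sema3a (SE 0.91, adjusted p 0.825), 0.62 for Sema3d (SE 1.21, adjusted p 0.806) and -0.48 for Sema3e (SE 1.50, adjusted p 0.883). A difference of the size seen for Sema6d was not detectable in them with these libraries. With the 4 libraries left out, 17 members passed on chow and 11 on high fat, among them all 12 and all 8 that passed with every library. Calls over all 22238 genes tested rose too, from 2843 to 4732 on chow and from 1854 to 3305 on high fat. Slit2 then passed on chow (log2 change -2.12, adjusted p 0.0367; range over its alternatives 0.0367 to 0.737).

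**Figure D5:**
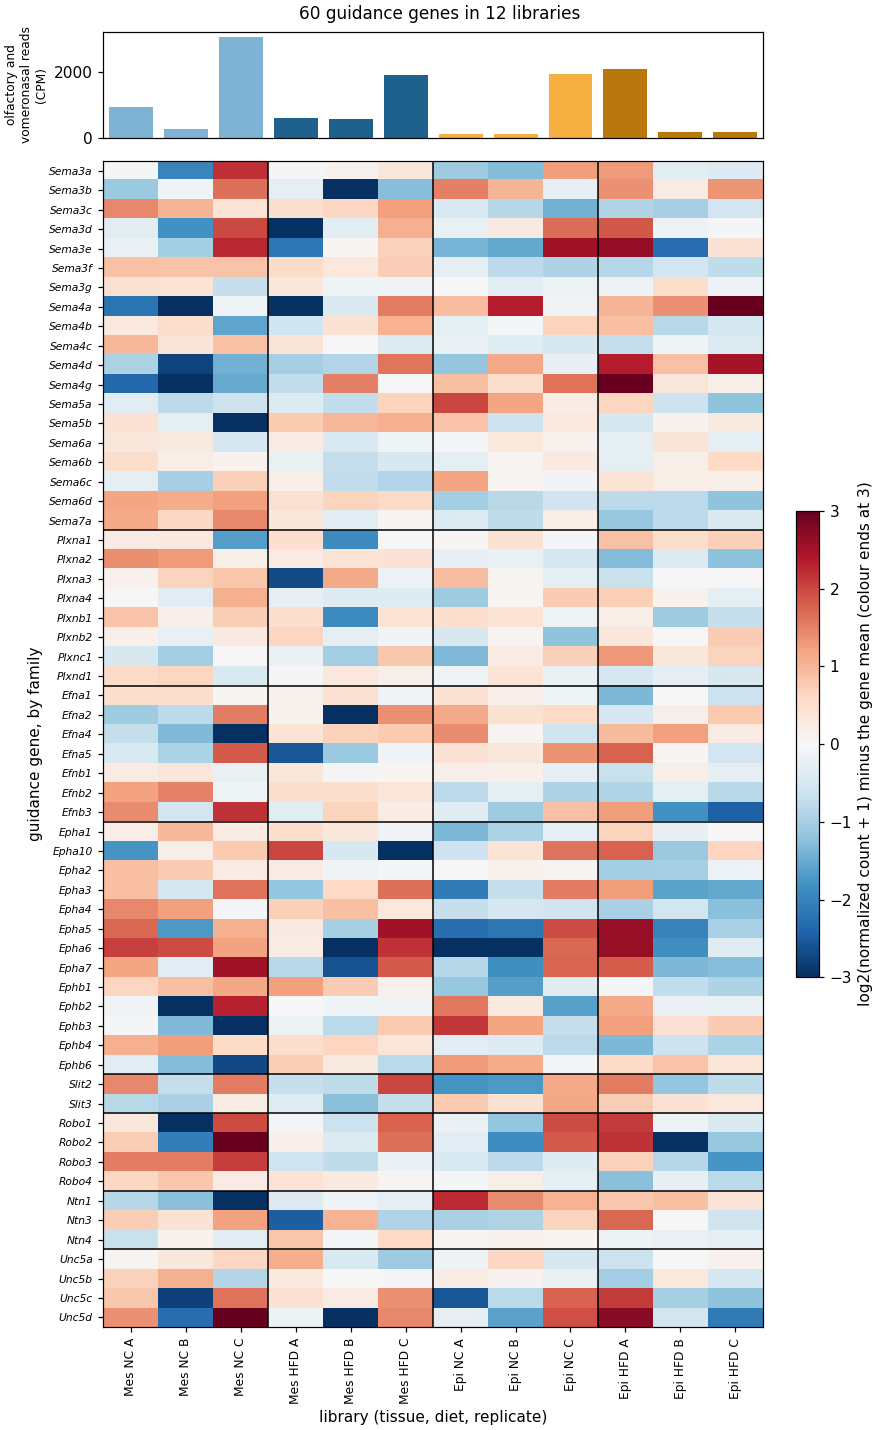
Rows are the 60 tested guidance genes by family and columns the 12 libraries; colour is log2(normalized count + 1) minus the gene's mean, and the bars above give the CPM of olfactory and vomeronasal receptor genes. Sema6d, Sema3f and Ephb4 are red in the 6 mesenteric columns and blue in the 6 epididymal ones, while Robo2, Unc5d and Epha7 are reddest within each group in the columns with the tall bars.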

How the data were processed

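The 12 libraries of sorted endothelial cells fall into 4 groups of 3 by the sample titles. The deposited table gives, for each gene, normalized counts (a non-negative signal) that the authors obtained with STAR 2.7.9a, featureCounts of Subread and DESeq2 1.34.0 on build mm39, per the submitters' processing notes; which annotation was used, and whether strand was, is not given in the sources used here. All values came out as whole reads divided by the library's size factor (100% within 0.01 of a whole number), so read numbers were recovered for the count tests.

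Groups were compared with limma 3.58.1 in R 4.3.3 (eBayes with trend) on log2(normalized count + 1) of the 22238 genes with a mean of at least 10, with 4 group means fitted to all 12 libraries. Benjamini-Hochberg adjustment ran over all genes of a contrast. A log2 change on this scale understates the change of low genes. The script was tested on simulated data. Alternatives were other pseudocounts (0.5 and 5), no filter or a mean of at least 50, columns rescaled to the same total, a term for the number range of the libraries, libraries numbered 50 to 53 only, a replicate block, the compared groups only, each library left out, and edgeR 4.0.16 and DESeq2 1.42.0 on the recovered reads. The replicate block used the letter for the diet comparisons and the library number for the tissue and interaction comparisons. A fit without the library of highest olfactory receptor share in each group was added after seeing the data.

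Exon lengths, for levels per kilobase, came from GENCODE M21 on GRCm38 and matched all 64 members. In that annotation 16 members share an exonic base with another gene and none shares 20% or more; the largest shares were 14.1% for Efna3, 10.7% for Plxna1 and 10.5% for Efna4, and Sema4c shared 7.27%, and reads there may be split or lost. Full statistics were given for members that passed, for 25 vessel-related members and for the highest of each family, and partners that passed were named. The members and lists were chosen with earlier results of these data known. Intervals and floors cover counting error or the spread of these libraries only, as the reads carry no molecular identifiers.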

Additional observations from a re-analysis of the deposited data

How the results depend on the processing

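In the alternatives other than leaving out a library, the number of members that passed stayed within 1.5 times the main count: 10 to 17 on chow (main 12) and 6 to 11 on high fat (main 8). Leaving out each library in turn gave 6 to 14 on chow and 4 to 8 on high fat. Without mesenteric chow replicate A 6 passed, and without mesenteric high fat replicate B or epididymal high fat replicate C 4 passed. Over all genes tested, leaving out single libraries gave 1516 to 3278 calls on chow (main 2843) and 728 to 1741 on high fat (main 1854). The other alternatives gave 1984 to 4732 and 1021 to 3305. No member passed for diet in either tissue or for the interaction in any alternative run.

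Rescaling the columns to the same total moved the median log2 change of all genes from 0.06 to -0.12 for the tissues on high fat, from 0.00 to 0.13 for diet in mesentery, from 0.10 to -0.04 for diet in epididymal fat and from 0.11 to -0.16 for the interaction. The labels do not say that a shared number marks the same mice. Deviations of same-numbered libraries correlated between -0.15 and 0.58, above 0.1 in 3 of 6 pairs. When only the 3 libraries of the other tissue on the same diet were ranked, 7 of 12 libraries correlated best with their own number. Epididymal chow replicate C and epididymal high fat replicate A, of different numbers, correlated at 0.84. These values cannot show whether mice were shared, and the main fit treated the libraries as unpaired. The replicate block was the library number for the tissue and interaction comparisons and the letter for diet. With it 12 members passed on chow, 10 on high fat and 0 in the other comparisons. Over all genes tested 2816 passed between the tissues on chow and 1890 on high fat.

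Directions changed only for members that did not pass, on chow unless stated. With libraries numbered 50 to 53 only, and without the libraries of highest olfactory receptor share, the log2 change was -0.030 for Plxna1 (main 0.51) and -0.16 for Sema6a (main 0.11). Both fits keep the same chow libraries, so on chow they are not separate checks. For Sema3e (main -0.48) the log2 change was 0.055 with edgeR and 0.073 with DESeq2. Leaving out single libraries gave -0.95 to 2.78 for Robo1, -0.84 to 0.14 for Unc5b, -0.13 to 0.84 for Plxna1, -1.45 to 0.64 for Sema3a, -0.26 to 1.64 for Sema3d, -1.81 to 0.47 for Sema3e and -0.17 to 0.27 for Sema6a, and -0.21 to 0.18 for the diet change of Efnb2 in epididymal fat. The cause of these changes was not tested.

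Low counts limit the scarce members: at 2.12 to 4.22 normalized counts for 3 reads, differences in genes such as Sema4g or Efna4 rest on few reads.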
